A study of Mus musculus and Homo sapiens with 14 samples.

Results

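Transcripts of 43 mitosis and spindle genes were followed in plasma cells that differ in Irf4 genotype and in plasma cell tumour lines with and without an Irf4 guide. The 43 genes were taken by symbol, and all were found among the 26221 symbols of the mouse count table and, in capitals, among the 27945 of the human table. They comprise the cyclins and kinase of mitotic entry (4 genes), other mitotic kinases (3), spindle checkpoint proteins (4), proteins of anaphase ubiquitination (3), kinetochore and centromere proteins (7), the chromosomal passenger complex (4), motors and spindle proteins (6), proteins of the central spindle and cytokinesis (6) and chromosome structure proteins (6). The series holds 14 RNA sequencing libraries in 8 groups, 10 from mouse (labelled C57BL/6) and 4 from human cells. Splenic plasma cells came from Irf4 flox/- or Irf4 flox/+ donor bone marrow, 2 libraries each, placed with uMT bone marrow, which cannot form B cells, in hosts told apart by a congenic marker. Hosts of both genotypes received tamoxifen on days 1, 2, 7 and 8, and donor plasma cells were sorted from spleens on day 14. The flox/- cells thus lacked 1 functional allele before tamoxifen, and the driver of the recombinase is not given in the sources used here. By their label the flox/+ controls also carry 1 floxed allele, and they received the same tamoxifen. They are therefore not untargeted cells. The tumour arm used MPC-11, a mouse plasmacytoma, and MM.1S, a human myeloma. Both lines carried Cas9 plus an Irf4 (IRF4) guide, labelled Irf4 -/-, or no guide (empty vector). Doxycycline was given and cells were sorted on day 3, with 2 libraries per arm. A single library each of wild-type bone marrow plasma cells and wild-type splenic follicular B cells served as reference. Nothing in the labels says whether the 2 libraries of a group came from separate animals or cultures, so p-values measure only the spread between these libraries.

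Mitosis divides the copied chromosomes between daughter cells. Cyclin B with the kinase Cdk1 drives entry, kinetochores attach chromosomes to spindle microtubules, the checkpoint holds anaphase back until all are attached, and the anaphase-promoting complex with Cdc20 then marks securin and cyclin B for destruction. Most of these genes are transcribed late in the cell cycle and are silent in resting cells, under the DREAM complex, MYBL2 and FOXM1, through a promoter element called the CHR. Plasmablasts divide, whereas mature plasma cells have left the cell cycle, and plasmacytoma and myeloma lines divide continuously. IRF4 is a transcription factor that plasma cells need in order to form and that myeloma lines depend on.

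Promoter sequence was available for 36 of the 43 mouse genes, as the 250 bases before to 50 bases after the annotated start (RefSeq, GRCm38.p6). The CHR (letters TTTGAA, searched on both strands) was present in 28 of the 36 promoters, or 77.8%, against 17.9% of 32851 promoters of the same length. A CCAAT box (letters CCAAT, either strand) was present in 29 of 36, or 80.6%, against 37.4% of all promoters. The composite ETS-IRF motif (GGAA and GAAA with 2 bases between them, either strand) was in 0 of 36 member promoters and in 2.72% of all promoters, and the core of the interferon-stimulated response element (GAAA and GAAA with 2 bases between them, either strand) was in 4 of 36, or 11.1%, against 3.44% of all promoters. The 4 with that core were Spc25, Bub1b, Smc2 and Cdca3. A match is a string of letters in this window, and no binding was measured here. Printed below are the promoters of Cdc20 and Cdca3, which were among the 5 members with the smallest p in MPC-11, of Gpsm2, which had the smallest p among members in splenic plasma cells, and of Cdk1, the entry kinase. They are given 5′ to 3′ on the gene's strand, with the CHR (TTTGAA) and CCAAT box (CCAAT, or ATTGG where it lies on the other strand) in capitals, at chr4:118437294-118437593 on the minus strand for Cdc20, chr6:124829926-124830225 on the plus strand for Cdca3, chr3:108722250-108722549 on the minus strand for Gpsm2 and chr10:69352863-69353162 on the minus strand for Cdk1.
Cdc20: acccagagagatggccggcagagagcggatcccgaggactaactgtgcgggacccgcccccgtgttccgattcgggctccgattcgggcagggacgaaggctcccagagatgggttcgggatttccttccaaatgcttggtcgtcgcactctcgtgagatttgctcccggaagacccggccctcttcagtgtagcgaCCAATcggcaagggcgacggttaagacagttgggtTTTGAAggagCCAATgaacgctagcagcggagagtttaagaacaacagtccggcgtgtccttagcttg
Cdca3: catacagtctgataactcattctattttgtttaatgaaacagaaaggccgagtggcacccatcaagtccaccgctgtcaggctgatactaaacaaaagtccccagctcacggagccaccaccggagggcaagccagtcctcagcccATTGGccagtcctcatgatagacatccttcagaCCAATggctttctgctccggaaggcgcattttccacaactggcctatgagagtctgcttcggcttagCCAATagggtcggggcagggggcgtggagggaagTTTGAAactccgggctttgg
Gpsm2: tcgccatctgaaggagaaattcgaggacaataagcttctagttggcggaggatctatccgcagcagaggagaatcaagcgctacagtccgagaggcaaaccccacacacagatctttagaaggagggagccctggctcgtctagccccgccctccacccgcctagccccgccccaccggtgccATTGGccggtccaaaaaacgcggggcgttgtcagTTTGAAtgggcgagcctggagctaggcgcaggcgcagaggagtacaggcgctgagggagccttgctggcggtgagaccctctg
Cdk1: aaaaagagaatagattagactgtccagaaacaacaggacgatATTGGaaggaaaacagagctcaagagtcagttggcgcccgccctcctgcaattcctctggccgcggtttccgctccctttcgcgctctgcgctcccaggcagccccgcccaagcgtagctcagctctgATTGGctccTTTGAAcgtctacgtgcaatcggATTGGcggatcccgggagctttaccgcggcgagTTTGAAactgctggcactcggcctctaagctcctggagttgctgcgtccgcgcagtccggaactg
The CHR begins 18 bases before the start in Cdc20, 33 before it in Gpsm2, 71 and 15 before it in Cdk1, and 30 bases after it in Cdca3.

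Total counts ranged over 18738283 to 27003585 in the mouse and 19317115 to 21572315 in the human samples. Immunoglobulin genes took 58.8% and 55.4% of counts in flox/- and 75.6% and 77.2% in flox/+ libraries, against 17.8% to 33.9% in MPC-11. Levels are given as CPM after TMM scaling, which sets the bulk of genes level between libraries, and a value after ± is the SE of a log2 fold change. The targeted transcript was set beside the labels, although a count over the whole gene does not measure deletion or editing. IRF4 stood at 142 and 191 CPM in MM.1S with the guide and at 489 and 434 CPM with the empty vector (log2 fold change -1.47 ± 0.22; edgeR adjusted p = 0.199, DESeq2 adjusted p = 4.44e-08). Irf4 in MPC-11 had 276 and 146 CPM with the guide and 467 and 496 CPM with the empty vector (-1.19 ± 0.37; edgeR adjusted p = 0.592, and 0.0821 in DESeq2). In spleen Irf4 stood at 82.6 and 99.8 CPM in the libraries labelled flox/- and at 114 and 53.8 CPM in those labelled flox/+ (0.12 ± 0.43; edgeR adjusted p = 0.967). The Irf4 transcript therefore did not separate the splenic groups, and directions drawn for spleen rest on the labels. Of 8 plasma cell markers, none was at 0 in any splenic, MPC-11, MM.1S or bone marrow plasma cell library.

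Member transcripts were scarce in sorted plasma cells and abundant in the lines. Summed over the 43 genes, flox/- libraries held 292 and 286 CPM and flox/+ libraries 163 and 170 CPM. MPC-11 held 1210 and 1490 CPM with the guide and 1900 and 2120 CPM with the empty vector. The bone marrow plasma cell library held 364 CPM and the follicular B cell library 154 CPM. In MM.1S, scaled separately, the sum was 3960 and 4130 CPM with the guide and 4080 and 5380 CPM with the empty vector. Neither pair of groups overlapped in mouse cells, and in MM.1S the range between the guide libraries reached above the lower of the empty libraries. As a share of all counts, with no TMM scaling, the genes took 0.0228% and 0.0265% in flox/- libraries and 0.00798% and 0.00738% in flox/+ libraries. On that measure the order of the reference libraries was reversed, with 0.0187% in bone marrow plasma cells and 0.0287% in follicular B cells. Members without a single count numbered 2 and 1 in flox/- libraries, 14 and 13 in flox/+ libraries, 1 in bone marrow plasma cells, 5 in follicular B cells and 0 in both lines. Fewer genes of any kind had a count in flox/+ libraries (12186 and 11403) than in flox/- libraries (13858 and 14320). In MPC-11 with the empty vector 11588 and 11444 genes had a count.

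**Figure D1:**
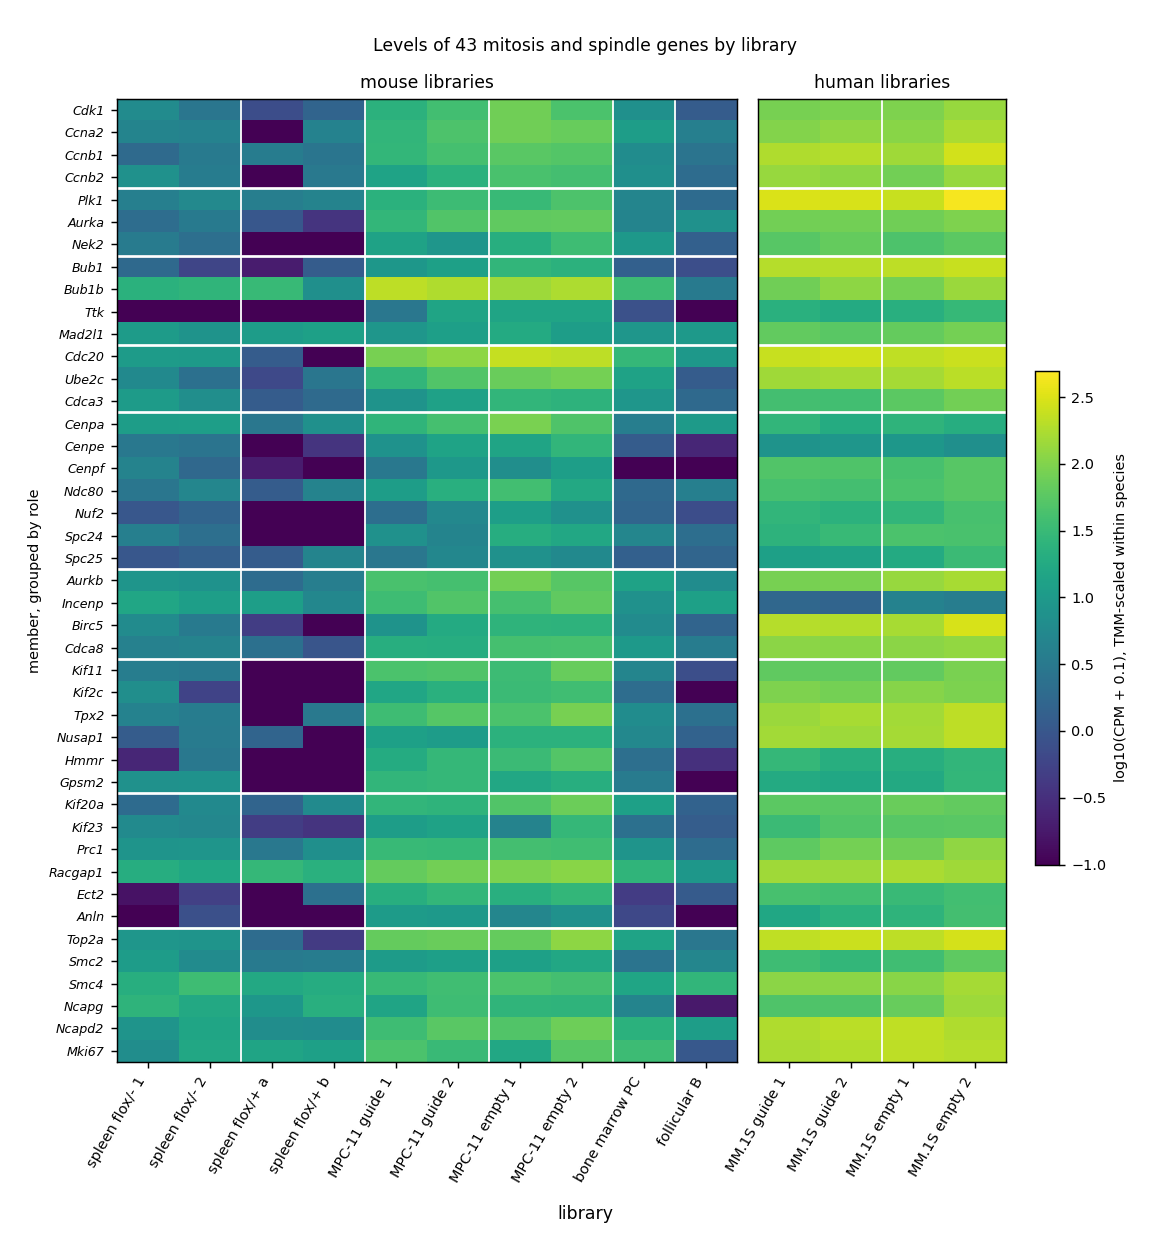
Levels of the 43 genes (rows, grouped by role, mouse symbols standing for the human genes) in 14 libraries (columns), as log10 of CPM + 0.1 after TMM scaling within species. The flox/+ columns hold 14 and 13 genes at 0, the flox/- columns 2 and 1, and the MPC-11 and MM.1S columns 0. Fewer genes of any kind had a count in flox/+ than in flox/- libraries.

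Which members stood highest per length was read from the deposited log2 FPKM, where fragments are divided by gene length. Cdc20 ranked first of the 43 in MPC-11 with the guide (mean 6.78 log2 FPKM) and with the empty vector (8.01), and in bone marrow plasma cells (5). PLK1, CDC20 and UBE2C held the top 3 places in MM.1S in both arms. In spleen the order differed, with Cenpa first in flox/- cells (3.93 log2 FPKM) and Racgap1 first in flox/+ cells (4.1). The leading positions in flox/+ cells were held by Racgap1, Mad2l1 and Smc4.

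The 2 reference libraries, each without a replicate, differed in which members they held. Their TMM factors were 0.515 for bone marrow plasma cells and 1.866 for follicular B cells, so the levels below depend on that scaling. Bub1b stood at 34.5 CPM, Mki67 at 34.2 CPM and Cdc20 at 28.9 CPM in bone marrow plasma cells, against 3.18 CPM, 0.941 CPM and 9.28 CPM in follicular B cells. Kif11 stood at 4.78 CPM in bone marrow plasma cells and at 0.687 CPM in follicular B cells, and Gpsm2 at 3.34 CPM in bone marrow plasma cells and at 0 in follicular B cells. Cenpa went the other way, with 3.7 CPM in bone marrow plasma cells and 10.4 CPM in follicular B cells. Gpsm2 and Kif11, which had no count in splenic flox/+ cells, were thus counted in the bone marrow plasma cell library. That library also held neutrophil and myeloid progenitor markers (6 genes) at 528 CPM in sum, none at 0 and Mpo highest at 168 CPM, against 9.56 CPM in follicular B cells. Their part in these mitotic levels was not tested.

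The comparison of splenic plasma cells sets flox/- against flox/+ cells from the animal, both with a floxed Irf4 allele and both after tamoxifen. Several mitotic transcripts that had no count or almost none in flox/+ plasma cells were counted at a few CPM in both flox/- libraries. Members already present in flox/+ cells were mixed. Racgap1 and Mad2l1 stood below both flox/+ libraries, Bub1b and Mki67 overlapped, and Smc4, a condensin subunit, stood above both at 13.1 and 22.3 CPM in flox/- and 10.9 and 11.9 CPM in flox/+ libraries. No member passed the test at an adjusted p of 0.05 (edgeR, 0 of 38 tested), and 0% of all 11887 genes did, the smallest adjusted p of any gene being 0.26. At an unadjusted p of 0.05, 12 members were higher and 0 lower, where 8.63% of all genes were higher and 3.85% lower. DESeq2 called 6 members higher, Gpsm2, Kif11, Kif23, Spc24, Nek2 and Kif2c, and 3.82% of all genes. In both flox/- libraries 24 of the 38 tested members stood above both flox/+ libraries, against 25.7% of all genes, and 2 (Mad2l1 and Racgap1) below both, against 18.3%. The filter on low counts keeps a gene that is counted in 1 genotype only, so these counts describe the members that passed and not the 43. With no filter, 42 members had a value, of which 36 lay above 0 and 6 below. Their median was 1.43 on the log2 scale, where 59.3% of all genes lay above 0 with a median of 0.23. With the filter 33 members lay above 0 and 5 below, where 54.3% of all genes lay above and 45.7% below. Their median was 1.35 and that of all genes 0.09, and the median was 2.05 without flox/+ library b. In bulk libraries like these, more dividing cells and more transcript per cell cannot be told apart.

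Gpsm2, which orients the spindle by linking it to the cell cortex, stood at 4.61 and 4.70 CPM (149 and 150 counts) in flox/- libraries and at 0 in both flox/+ libraries. The difference was at least 55.8-fold, taking 3 counts over the flox/+ group as the floor (edgeR adjusted p = 0.275, DESeq2 adjusted p = 0.000154). Gpsm2 (Entrez 76123; mm10 chromosome 3, 108678638 to 108722309, minus strand) shares 5.19% of its exon bases with Clcc1 on the other strand, and whether counting used strand is not given in the sources used here. Kif11, the motor that pushes the spindle poles apart, stood at 2.23 and 2.07 CPM in flox/- libraries and at 0 in both flox/+ libraries, at least 25.8-fold higher (edgeR adjusted p = 0.275). Of the 5 members with the smallest p, 4 had no count in flox/+ cells. Spc24, a subunit of the NDC80 kinetochore complex, stood at 2.38 and 1.35 CPM in flox/- and at 0 in both flox/+ libraries, at least 22.4-fold higher (edgeR adjusted p = 0.275). Nek2, a kinase that separates centrosomes, stood at 2.10 and 1.35 CPM in flox/- and at 0 in both flox/+ libraries, at least 20.7-fold higher (edgeR adjusted p = 0.275). Kif23, the motor of the central spindle, stood at 3.62 and 3.17 CPM in flox/- libraries and at 0.234 and 0.159 CPM in flox/+ libraries (log2 fold change 4.08 ± 1.01; edgeR adjusted p = 0.275). These 5 genes were low in absolute terms, none above 5 CPM.

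Leading genes of the other roles fell into those with separated groups and those without. Cdc20, the activator of the anaphase-promoting complex, stood at 6.59 and 6.43 CPM in flox/- libraries and at 0.702 and 0 CPM in flox/+ libraries (log2 fold change 4.21 ± 1.6; edgeR adjusted p = 0.370). Birc5, the survivin subunit of the passenger complex, stood at 3.68 and 2.07 CPM in flox/- and at 0.234 and 0 CPM in flox/+ libraries (4.59 ± 1.64). Top2a, the topoisomerase that untangles chromatids, stood at 5.35 and 5.14 CPM in flox/- and at 1.23 and 0.212 CPM in flox/+ libraries (2.86 ± 1.07). In all 3 both flox/- libraries stood above both flox/+ libraries, and so they did in Cdk1, Aurkb and Cenpa. Cdk1 stood at 3.68 and 1.72 CPM in flox/- and at 0.409 and 0.900 CPM in flox/+ libraries (2.03 ± 1.03). Aurkb, the passenger kinase that corrects attachments, stood at 5.26 and 4.77 CPM in flox/- and at 1.23 and 2.33 CPM in flox/+ libraries (1.49 ± 0.77). Cenpa, the histone that marks centromeres, stood at 7.02 and 7.28 CPM in flox/- and at 1.81 and 4.45 CPM in flox/+ libraries (1.19 ± 0.72). Adjusted p-values of these 6 genes lay between 0.343 and 0.629.

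Other leading genes overlapped between genotypes or stood lower in flox/- cells. Bub1b, the checkpoint protein BubR1, stood at 14.4 and 16.7 CPM in flox/- and at 20 and 4.24 CPM in flox/+ libraries, so that flox/+ library a was above and flox/+ library b below both flox/- libraries. Mki67, a coat protein of mitotic chromosomes used as a proliferation marker, stood at 3.96 and 10.4 CPM in flox/- and at 9.30 and 7.84 CPM in flox/+ libraries. Its log2 fold change was -0.26 ± 0.65, and it was 0.68 when libraries were scaled to size alone. The proliferation marker thus did not go with Top2a or Cdc20. Ccnb1, cyclin B1, stood at 1.11 and 2.01 CPM in flox/- and at 2.22 and 1.64 CPM in flox/+ libraries. Plk1, polo-like kinase, stood at 2.44 and 3.45 CPM in flox/- and at 2.40 and 2.75 CPM in flox/+ libraries. Ndc80, the kinetochore subunit that binds microtubules, stood at 1.70 and 3.10 CPM in flox/- and at 0.702 and 2.75 CPM in flox/+ libraries, again overlapping. Racgap1, which acts with Kif23 in the central spindle, stood at 12.5 and 10 CPM in flox/- and at 18.2 and 13.6 CPM in flox/+ libraries, below both flox/+ libraries (-0.50 ± 0.42). With scaling to size alone it was 0.37. The largest difference in the lower direction among the 38 tested members was in Spc25, another NDC80 complex subunit, at 0.557 and 0.753 CPM in flox/- and at 0.702 and 2.81 CPM in flox/+ libraries (-1.42 ± 1.14). It rested on flox/+ library b, without which it was -0.10. Among members under the filter, Ect2 was lower still with no filter (-2.25).

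No count was found in either flox/+ library for 9 members, Nek2, Ttk, Nuf2, Spc24, Kif11, Kif2c, Hmmr, Gpsm2 and Anln, and in exactly 1 flox/+ library for a further 9. Ttk had no count in the flox/- libraries either. Of those 9, 4 did not pass the filter: Ttk, Kif2c, Hmmr and Anln, as did Ect2, which had 0.0309 and 0.251 CPM in flox/- and 0 and 1.38 CPM in flox/+ libraries. Kif2c and Hmmr came mostly from 1 flox/- library each: Kif2c stood at 4.11 and 0.282 CPM and Hmmr at 0.0928 and 1.85 CPM in flox/- libraries. Split by the mean over the 4 libraries, the 19 less abundant tested members had a median log2 fold change of 2.03 and the 19 more abundant ones 0.75. Of the 5 tested members without a count in flox/+ cells, 4 were in the less abundant set. These passed the filter only through flox/- cells, so the split cannot show that the difference depends on abundance. The 6 most abundant members took 39.9% and 44.1% of member counts in flox/- libraries and 70.4% and 55.6% in flox/+ libraries, so counts were spread over more members in flox/- cells.

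Markers of other cells also differed with genotype in the same libraries. Summed macrophage markers (12 genes) stood at 8850 and 823 CPM in flox/- and at 672 and 266 CPM in flox/+ libraries. T cell markers (8 genes) summed to 166 and 426 CPM in flox/- and to 14.8 and 27.6 CPM in flox/+ libraries, and NK cell markers (6 genes) to 28.1 and 87.5 CPM in flox/- and to 0.55 and 0.598 CPM in flox/+ libraries. All 3 lists were higher in both flox/- libraries. B cell markers (7 genes) summed to 388 and 640 CPM in flox/- and to 221 and 243 CPM in flox/+ libraries, against 4790 CPM in follicular B cells. Erythroid markers (7 of 8 in the table) summed to 563 and 39.5 CPM in flox/- and to 30.2 and 5.04 CPM in flox/+ libraries. The sum of plasma cell markers (8 genes) went the other way, at 36300 and 33500 CPM in flox/- and 78900 and 98500 CPM in flox/+ libraries. Most of it was Jchain, at 31900 and 29100 CPM in flox/- and 69800 and 87900 CPM in flox/+ libraries. The sum thus describes mainly that gene, and Irf4, also on the list, did not separate the groups. Neutrophil markers were at most 0.55 CPM in all 4. The part of these cells in the mitotic transcripts was not tested. Between the 2 flox/- libraries, macrophage and erythroid markers were higher in library 1, and T cell, NK cell and B cell markers were higher in library 2.

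**Figure D2:**
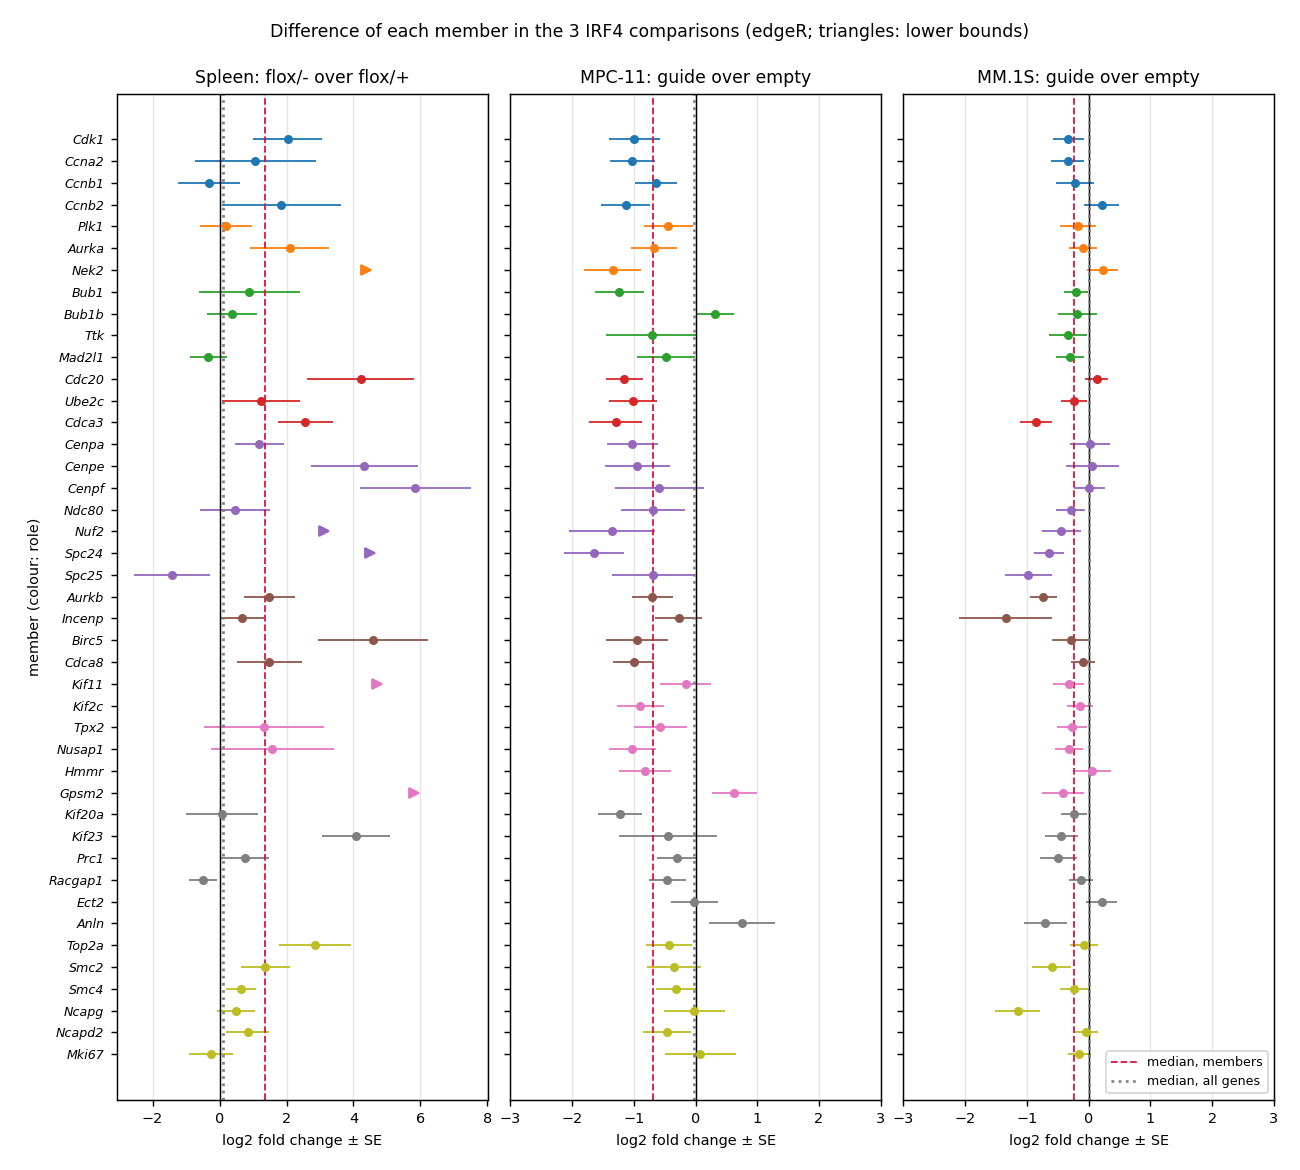
Log2 fold change (x axis, ± SE from edgeR) of each member (rows, coloured by role, mouse symbols) for flox/- over flox/+ spleen cells, MPC-11 guide over empty vector and MM.1S guide over empty vector, with medians as vertical lines. Right-pointing triangles are lower bounds for 5 genes without a count in flox/+ cells, and the members' medians are 1.35, -0.69 and -0.23.

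In MPC-11 the comparison asks what targeting Irf4 does to a dividing plasmacytoma. Here 39 of 43 members were lower with the guide than with the empty vector and 4 were higher. Their median on the log2 scale was -0.69, where 51.5% of all 10670 genes were lower and their median was -0.02. No member passed an adjusted p of 0.05 in edgeR, where 0.0187% of all genes did (2 genes, both higher with the guide). At an unadjusted p of 0.05, 13 members were lower and 0 higher, where 2.56% of all genes were lower and 3.49% higher. With all mouse libraries in 1 fit, 2 members were lower at that threshold. DESeq2 called 1 member lower, Cdc20 (adjusted p = 0.0206), and 0.466% of all genes. Both guide libraries stood below both empty libraries in 26 members, against 16.5% of all genes, and above both in 3, Bub1b, Gpsm2 and Anln, against 16.9%. The members' median was -0.33 without guide library 1 and -1 without guide library 2.

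Genes of anaphase ubiquitination and of mitotic entry had the lowest role medians. Cdc20 (Entrez 107995; mm10 chromosome 4, 118432901 to 118437352, minus strand) stood at 141 and 189 CPM with the guide and at 374 and 355 CPM with the empty vector (log2 fold change -1.15 ± 0.30; edgeR adjusted p = 0.528). It shares 2.84% of its exon bases with Elovl1 on the other strand. Cdca3, a trigger of mitotic entry that promotes the breakdown of WEE1, stood at 12.8 and 21.0 CPM with the guide and at 42.3 and 39.9 CPM with the empty vector (-1.29 ± 0.43; edgeR adjusted p = 0.625). With Ube2c, the conjugating enzyme of the anaphase-promoting complex, all 3 genes grouped under anaphase ubiquitination lay below the controls, with a median of -1.15. The grouping is loose, since Cdca3 acts at mitotic entry. Ube2c shares 22.8% of its exon bases with Tnnc2 on the other strand, so its value is uncertain, and 9 of the 43 members overlap exons of another coding gene in this way. Among entry genes, Cdk1 stood at 37.7 and 61.3 CPM with the guide and at 123 and 73.9 CPM with the empty vector (-0.99 ± 0.41). Ccnb1 stood at 45.6 and 65.7 CPM with the guide and at 90.0 and 83.2 CPM with the empty vector (-0.64 ± 0.34). All 4 entry genes lay below both empty libraries, with a median of -1.01.

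Kinetochore and passenger genes were lower by a like amount, with medians of -0.94 over 7 and -0.82 over 4 genes. Spc24 stood at 11.6 and 7.48 CPM with the guide and at 31.9 and 27.4 CPM with the empty vector, the lowest log2 fold change among the members at -1.64 ± 0.48 (edgeR adjusted p = 0.553). Cenpa stood at 42.3 and 66.9 CPM with the guide and at 143 and 79.2 CPM with the empty vector (-1.02 ± 0.42). Groups did not overlap in either gene. Ndc80 stood at 18.4 and 35.5 CPM with the guide and at 58.9 and 28.2 CPM with the empty vector, and its groups overlapped. Aurkb stood at 68.7 and 66.4 CPM with the guide and at 129 and 90.2 CPM with the empty vector (-0.70 ± 0.33). Birc5 stood at 12.4 and 29.5 CPM with the guide and at 40.0 and 40.8 CPM with the empty vector (-0.95 ± 0.50). Both passenger genes lay below the controls.

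Checkpoint, motor, cytokinesis and chromosome genes were more mixed, with role medians of -0.59, -0.69, -0.38 and -0.33. Bub1, the checkpoint kinase, stood at 14.5 and 20.2 CPM with the guide and at 42.8 and 38.6 CPM with the empty vector (-1.23 ± 0.40; edgeR adjusted p = 0.615). Its partner Bub1b stood higher, at 347 and 292 CPM with the guide and at 224 and 287 CPM with the empty vector (0.32 ± 0.30). Gpsm2 also stood above both controls, at 43.8 and 48.1 CPM with the guide and at 25.6 and 33.7 CPM with the empty vector (0.63 ± 0.37). The largest difference in the higher direction was in Anln, the anillin scaffold of the cleavage furrow, at 17.2 and 16.1 CPM with the guide and 7.62 and 12.1 CPM with the empty vector (0.75 ± 0.53). Kif20a, a motor of the central spindle, stood at 43.8 and 40.9 CPM with the guide and at 78.0 and 120 CPM with the empty vector (-1.22 ± 0.35; edgeR adjusted p = 0.553). It shares 29.3% of its exon bases with Cdc23 on the other strand, so its value is uncertain. Kif11 stood at 71.3 and 78.7 CPM with the guide and at 54.2 and 114 CPM with the empty vector, and Plk1 at 36.3 and 55.9 CPM with the guide and at 49.2 and 75.6 CPM with the empty vector. Racgap1 stood at 108 and 134 CPM with the guide and at 149 and 184 CPM with the empty vector, below both controls (-0.46 ± 0.30). Top2a stood at 108 and 116 CPM with the guide and at 106 and 196 CPM with the empty vector, and Mki67 at 72.1 and 52.2 CPM with the guide and at 26.1 and 91.2 CPM with the empty vector. For Kif11, Top2a and Mki67 both guide libraries lay between the 2 empty libraries, and the spread between the empty libraries exceeded the difference of means.

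**Figure D3:**
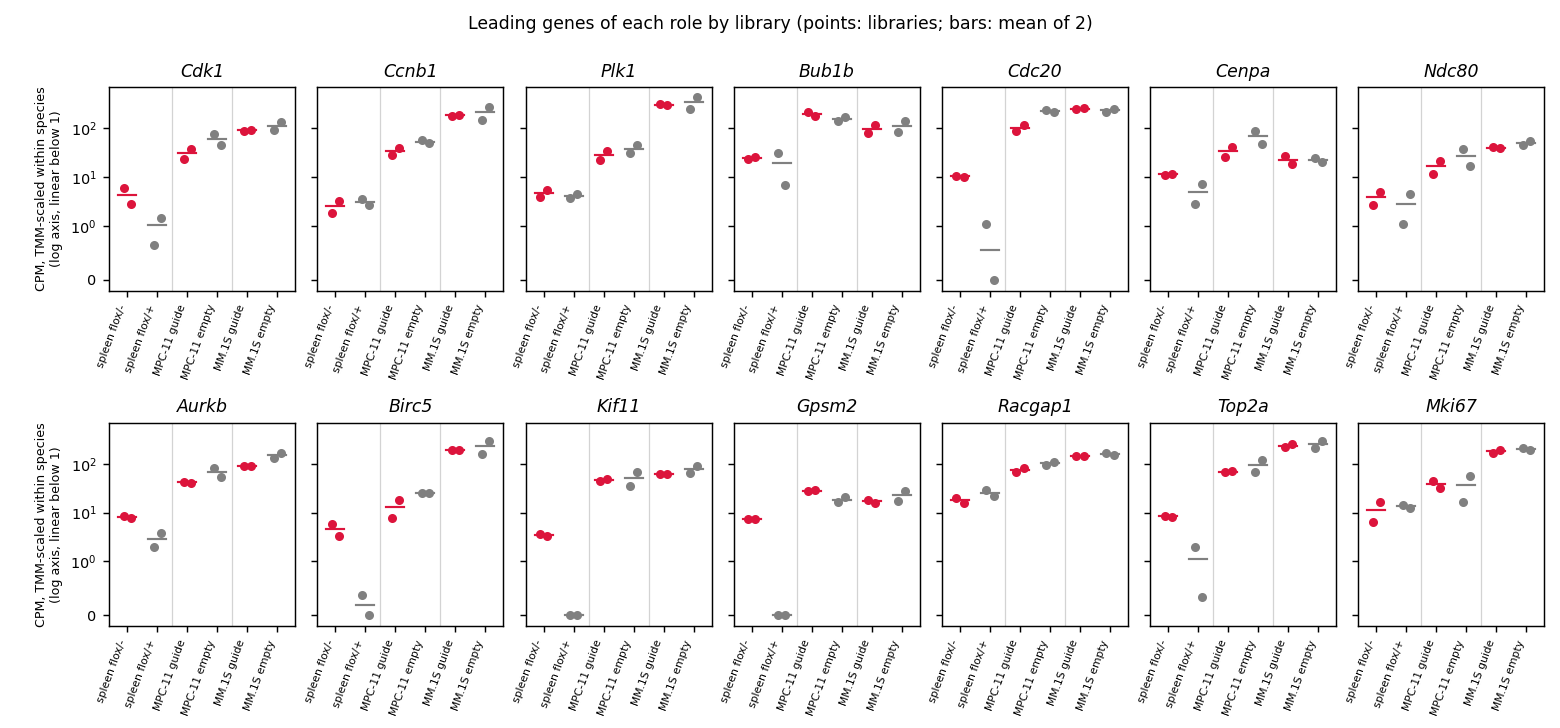
CPM (log axis, linear below 1; TMM-scaled) of 14 leading genes in spleen, MPC-11 and MM.1S, with a point per library and a bar at the mean of 2. Gpsm2 and Kif11 sit at 0 in both flox/+ libraries, and Cdc20 is lower in both MPC-11 guide libraries than in both empty libraries.

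MM.1S puts the same question to a human myeloma line. Of 43 members 35 were lower and 8 higher with the guide, where 49.3% of all 12696 genes were lower and 50.7% higher, and the median was -0.23, against 0.01 over all genes. No member passed an adjusted p of 0.05 in edgeR, where 0.00788% of all genes did, and DESeq2 called 0 members, where it called 1.29% of all genes lower and 1.46% higher. At an unadjusted p of 0.05, 5 members were lower and 0 higher, where 4.58% of all genes were lower and 5.42% higher. Both guide libraries lay below both empty libraries in 18 members, against 18.9% of all genes, and above both in 1, ECT2, against 22.4%. The size depended on both empty libraries. Without empty library 1 the median was -0.47 and 4 members, AURKB, CDCA3, SPC25 and NCAPG, were called lower by edgeR, where 2.17% of all genes were. Without empty library 2 the median was -0.09 and 0 were called. In these fits the lone empty library is assumed to vary like the 2 guide libraries, which alone give the spread.

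AURKB stood at 88.8 and 90.7 CPM with the guide and at 131 and 167 CPM with the empty vector (log2 fold change -0.73 ± 0.22; edgeR adjusted p = 0.340). CDCA3 stood at 39.0 and 38.3 CPM with the guide and at 58.2 and 80.9 CPM with the empty vector (-0.85 ± 0.26; edgeR adjusted p = 0.343). NCAPG, a subunit of condensin, which compacts chromosomes, stood at 48.7 and 47.7 CPM with the guide and at 68.6 and 145 CPM with the empty vector (-1.15 ± 0.36; edgeR adjusted p = 0.360). The guide libraries agreed closely in all 3, and the empty libraries spread most in NCAPG. SPC25 stood at 12.6 and 13.7 CPM with the guide and at 18.2 and 33.8 CPM with the empty vector (-0.98 ± 0.38), and SPC24 at 24.8 and 30.9 CPM with the guide and at 44.0 and 42.9 CPM with the empty vector (-0.64 ± 0.25). Both subunits of the NDC80 complex thus lay below the controls. The largest difference in the higher direction was in NEK2, at 54.6 and 67.2 CPM with the guide and at 45.4 and 58.1 CPM with the empty vector (0.23 ± 0.25).

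Other leading genes in MM.1S had adjusted p-values of 0.772 or more in edgeR. CDC20 stood at 247 and 269 CPM with the guide and at 216 and 254 CPM with the empty vector (0.13 ± 0.19). CDK1 stood at 89.0 and 93.8 CPM with the guide and at 93.9 and 136 CPM with the empty vector (-0.33 ± 0.25). KIF11 stood at 62.3 and 63.0 CPM with the guide and at 64.3 and 91.9 CPM with the empty vector. In CDK1 and KIF11 the guide libraries lay just below empty library 1. For 4 genes the guide libraries lay between the empty libraries: CCNB1 stood at 179 and 192 CPM with the guide and at 149 and 283 CPM with the empty vector, and PLK1 at 313 and 304 CPM with the guide and at 246 and 447 CPM with the empty vector. BIRC5 stood at 192 and 190 CPM with the guide and at 161 and 303 CPM with the empty vector, and TOP2A at 221 and 256 CPM with the guide and at 211 and 291 CPM with the empty vector. Empty library 1 was the low one in all 4. NDC80 stood at 41.8 and 39.1 CPM with the guide and at 44.3 and 54.7 CPM with the empty vector, and RACGAP1 at 148 and 144 CPM with the guide and at 167 and 152 CPM with the empty vector, both below the controls. BUB1B stood at 79.3 and 118 CPM with the guide and at 83.9 and 141 CPM with the empty vector, and CENPA at 27.4 and 18.6 CPM with the guide and at 25.0 and 20.4 CPM with the empty vector. MKI67 stood at 171 and 191 CPM with the guide and at 210 and 191 CPM with the empty vector, and GPSM2 at 18 and 16.1 CPM with the guide and at 17.3 and 28.1 CPM with the empty vector. None of these 4 had an adjusted p under 0.803.

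Most members were lower in each line. In both lines 31 members were lower, 8 were lower in MPC-11 and higher in MM.1S, and 4 were higher in MPC-11 and lower in MM.1S. The 31 are 79.5% of the 39 lower in MPC-11, where 81.4% of all members were lower in MM.1S. Across the 43 members the log2 fold changes of the lines had a Pearson's r of -0.21 and a Spearman's rho of -0.16, given as a description across genes, which are not independent replicates. Below both controls in both lines were 10 members, which are 38.5% of the 26 in MPC-11, where 41.9% of all members were below in MM.1S, and 55.6% of the 18 in MM.1S, where 60.5% of all members were below in MPC-11: Cdk1, Bub1, Cdca3, Spc24, Spc25, Aurkb, Nusap1, Kif20a, Racgap1 and Smc2. Cdca3 and Spc24 were among the 5 smallest p in both lines. Cdc20, which had the smallest p in MPC-11, had the value 0.13 in MM.1S.

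**Figure D4:**
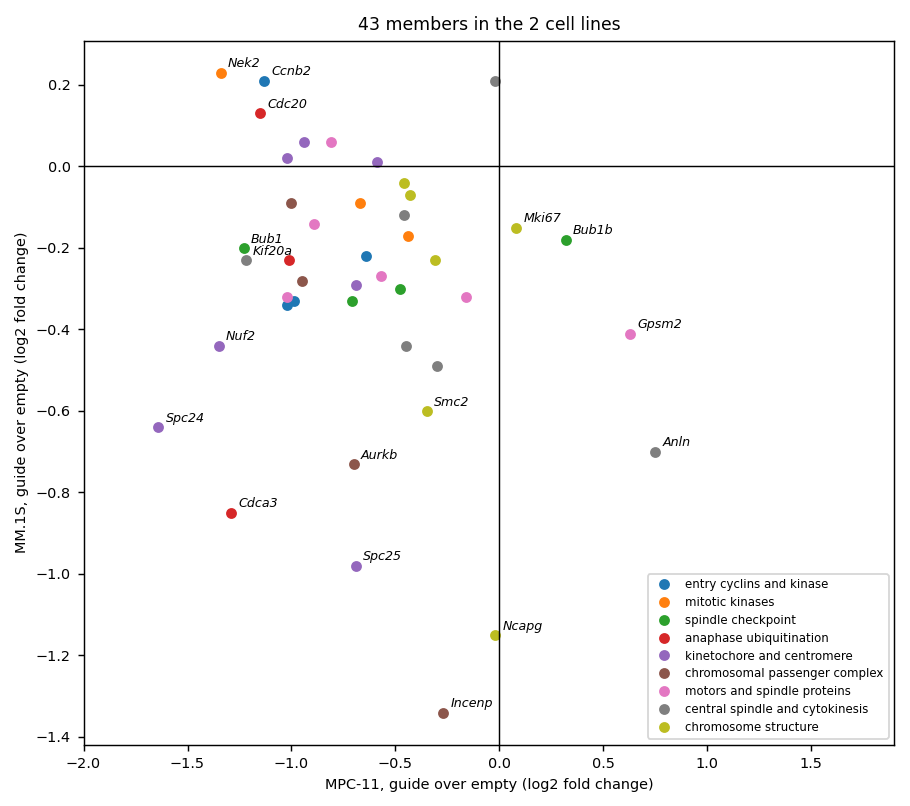
Log2 fold change with the guide over the empty vector in MPC-11 (x axis) and in MM.1S (y axis), a point per member coloured by role and named by its mouse symbol where far from the rest. Most points lie to the lower left, below 0 on both axes (31 of 43 members), and Anln and Gpsm2 lie to the right of it.

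The difference of effect between MPC-11 and spleen was tested as an interaction over their 8 libraries. The effects differ in how Irf4 was targeted, in timing (day 14 in spleen, day 3 in MPC-11) and in their controls. These cannot be told apart from cell type. Irf4 transcript did not separate the splenic groups, and markers of other cells differed between them. Ttk had no count in any spleen library and so has no spleen effect. Of the other 42 members the difference was below 0 for 38, meaning a lower value in MPC-11 than in spleen, where 55.9% of all 12993 genes were below 0. No member passed an adjusted p of 0.05 in edgeR, where 0% of all genes did. At an unadjusted p of 0.05, 19 members were below 0 and 0 above, where 4.25% of all genes were below and 1.96% above. DESeq2 called 12 members, where it called 1.09% of all genes below 0 and 0.516% above. The median difference was -2.22 on the log2 scale (-2.19 with 8 genes without a count in flox/+ cells at their bound), against -0.13 over all genes, and it was -1.66 without flox/+ library a and -3.06 without flox/+ library b. Of the 5 members with the smallest p, 4 (Gpsm2, Kif11, Nek2 and Spc24) had no count in flox/+ cells, and their adjusted p lay between 0.151 and 0.174 in edgeR and between 0.000110 and 0.000481 in DESeq2. The fifth, Cdc20, was higher in flox/- cells (4.21) and lower in MPC-11 with the guide (-1.15), a difference of -5.40 ± 1.08 (SE; edgeR adjusted p = 0.247, and 3.18e-06 in DESeq2). Both effects of Gpsm2 lay above 0. The largest difference above 0 was in Ect2, at 2.28 ± 1.83, which turned to -5.56 without flox/+ library b.

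Setting MPC-11 with the empty vector beside splenic flox/+ cells shows how far a dividing line stands from sorted plasma cells. All 43 members were higher in MPC-11, where 49.5% of all 11465 genes were higher and 50.5% lower. Of these 36 rose past an adjusted p of 0.05 (edgeR), where 12% of all genes rose and 15.6% fell. At an unadjusted p of 0.05, 39 members were higher and 0 lower, where 20.5% of all genes were lower. The median log2 fold change was 5.06, against -0.02 over all genes. Cdc20 stood at 205 and 197 CPM in MPC-11 and at 0.945 and 0 CPM in flox/+ cells, with a log2 ratio of 8.72 ± 1.07 (edgeR adjusted p = 0.00172). Kif11 stood at 29.7 and 63.0 CPM in MPC-11 and at 0 in both flox/+ libraries, at least 414-fold higher, and Gpsm2 at 14.0 and 18.7 CPM in MPC-11 and at 0 in both flox/+ libraries, at least 142-fold higher. Of the 14 leading genes, 13 rose, and Racgap1 rose least among them (2.04 ± 0.40). The 7 members that did not pass were Ect2, Smc2, Smc4, Mki67, Ncapg, Spc25 and Mad2l1. Mki67 stood at 14.3 and 50.6 CPM in MPC-11 and at 12.5 and 11.5 CPM in flox/+ cells (1.43 ± 0.67; edgeR adjusted p = 0.166). Mad2l1, the checkpoint protein that binds Cdc20, stood at 15.5 and 10.3 CPM in MPC-11 and at 9.37 and 11.3 CPM in flox/+ cells, and was the 1 member whose groups overlapped, where both MPC-11 libraries stood above both flox/+ libraries in 33% of all genes. Chromosome structure genes had the lowest role median, 1.79, with 2 of 6 past the threshold. Species of origin is shared here, but tissue, tumour origin and culture differ. So do Irf4 genotype (flox/+ in spleen) and treatment (tamoxifen in spleen, Cas9 with doxycycline in MPC-11). None of these can be told apart.

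**Figure D5:**
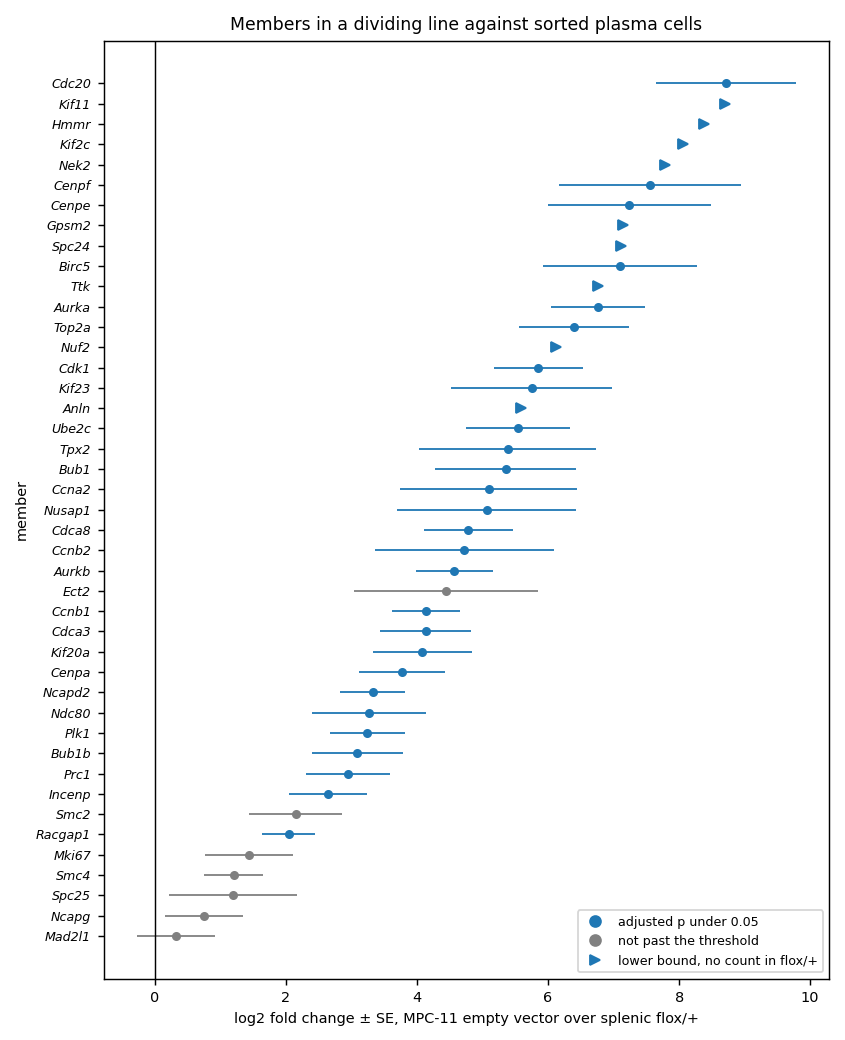
Log2 fold change (x axis, ± SE from edgeR) of the 43 members (rows, ordered by size) in MPC-11 with the empty vector over splenic flox/+ plasma cells. The 36 members past an adjusted p of 0.05 are blue and the other 7 grey, and triangles are lower bounds for the 9 genes without a count in flox/+ cells.

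Other genes of cell division were read from lists that were chosen with earlier results of these data known. DNA replication genes (32) were lower in 31 of 32 in MPC-11, where 51.5% of all genes were, and in 31 of 32 in MM.1S with the guide, where 49.3% were, with medians of -0.84 and -0.86. At an unadjusted p of 0.05 9 were lower in MPC-11, where 2.56% of all genes were, and 22 in MM.1S, where 4.58% were. In edgeR 0 passed the adjusted threshold in either line. MCM6, part of the replicative helicase, stood at 81.4 and 92.1 CPM with the guide and at 169 and 207 CPM with the empty vector in MM.1S (-1.11 ± 0.21; edgeR adjusted p = 0.220). RRM2, a subunit of ribonucleotide reductase, stood at 178 and 235 CPM with the guide and at 450 and 775 CPM with the empty vector (-1.57 ± 0.30; edgeR adjusted p = 0.220). The replication list was thus further from 0 than the mitotic members in MM.1S, where these had a median of -0.23. In MPC-11, Cdc45, a helicase partner, stood at 17.5 and 25.8 CPM with the guide and at 52.9 and 52.4 CPM with the empty vector (-1.28 ± 0.39), and Ccne1, cyclin E1, at 17.4 and 14.7 CPM with the guide and at 31.7 and 67.9 CPM with the empty vector (-1.64 ± 0.48). In spleen 24 of 32 replication genes were higher in flox/- cells (median 0.56), where 54.3% of all genes were. Mcm5, another helicase subunit, stood at 37.6 and 41.6 CPM in flox/- and at 11.5 and 7.31 CPM in flox/+ libraries (2.07 ± 0.40; edgeR adjusted p = 0.275). Cdc6, a loader of the helicase, stood at 3.74 and 0.659 CPM in flox/- and at 0 in both flox/+ libraries.

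The 66 other mitosis genes had medians of 0.36 in spleen (32 of 49 tested higher), -0.64 in MPC-11 (57 of 65 lower) and -0.48 in MM.1S (58 of 66 lower). Of all genes 54.3% were higher in spleen, 51.5% lower in MPC-11 and 49.3% lower in MM.1S. In spleen, Espl1, the separase that cuts cohesin, stood at 2.35 and 1.16 CPM in flox/- and at 0 in both flox/+ libraries, and Sgo1, which guards cohesin, at 1.30 and 1.94 CPM in flox/- and at 0 in both flox/+ libraries. In MPC-11, Kif14, a cytokinesis motor, stood at 0 in both guide libraries and at 1.08 and 8.36 CPM with the empty vector, and Troap at 10.6 and 11.5 CPM with the guide and at 23.1 and 31.5 CPM with the empty vector (-1.31 ± 0.46). None of these passed the adjusted threshold in edgeR. KIFC1, a minus-end spindle motor, stood at 131 and 101 CPM with the guide and at 225 and 229 CPM with the empty vector in MM.1S (-0.97 ± 0.21; edgeR adjusted p = 0.263), and NCAPH2, a condensin II subunit, at 97.1 and 95.7 CPM with the guide and at 164 and 191 CPM with the empty vector (-0.88 ± 0.20; edgeR adjusted p = 0.278).

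Of 18 regulators of mitotic genes, 9 of 15 tested were higher in spleen (median 0.30), 12 of 18 were lower in MPC-11 (-0.28) and 14 of 18 were lower in MM.1S (-0.39). FOXM1, the factor that activates late cell cycle genes, stood at 47.2 and 48.3 CPM with the guide and at 79.5 and 87.4 CPM with the empty vector (-0.81 ± 0.22; edgeR adjusted p = 0.314). E2F2 stood at 55.9 and 77.1 CPM with the guide and at 126 and 129 CPM with the empty vector in MM.1S (-0.94 ± 0.24). In MPC-11 E2f2 lay on the other side of 0, at 25.1 and 32.4 CPM with the guide and 13.4 and 14.8 CPM with the empty vector (1.03 ± 0.43), and in spleen it stood at 20 and 16.2 CPM in flox/- and at 9.42 and 10.3 CPM in flox/+ libraries (0.88 ± 0.40). The pocket protein gene Rbl1 stood at 14.1 and 8.77 CPM with the guide and at 23.4 and 31.7 CPM with the empty vector in MPC-11 (-1.27 ± 0.49). Of 6 tested cell cycle inhibitors, 4 were lower in spleen (median -0.50), 4 were lower in MPC-11 (-0.37) and 4 were higher in MM.1S (0.24). Cdkn1a, which encodes p21, stood at 373 and 383 CPM with the guide and at 233 and 198 CPM with the empty vector in MPC-11 (0.81 ± 0.28; edgeR adjusted p = 0.657). Of 15 genes of the anaphase-promoting complex, 9 were lower in spleen (median -0.31), 11 in MPC-11 (-0.35) and 10 in MM.1S (-0.28). Of all genes 45.7% were lower in spleen, 51.5% in MPC-11 and 49.3% in MM.1S. Cdc27 stood at 11.5 and 6.84 CPM in flox/- and at 3.04 and 2.38 CPM in flox/+ libraries (1.75 ± 0.63), and UBE2S, the enzyme that extends ubiquitin chains, at 123 and 98.6 CPM with the guide and 160 and 182 CPM with the empty vector in MM.1S (-0.63 ± 0.21). None of the genes named in these lists passed an edgeR adjusted p of 0.05 in the 3 IRF4 comparisons. DESeq2 values are not given for them here.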

How the data were processed

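RNA sequencing of 14 libraries was analysed from the deposited tables. Per the labels, RNA was column-purified, reverse transcribed and made into libraries with a Nextera kit. Builds mm10 and hg38, and the tools featureCounts, Subread 1.6.0 and limma, stand in the submitters' processing notes; annotation, strand setting and filters are not given in the sources used here. The authors deposited counts per gene (27179 mouse and 28395 human entries, whole numbers, not normalised) and, per library, log2 FPKM, whose offset is not stated. Left out were 958 mouse and 450 human entries that lack a symbol, with a share of counts of 0.306% or less. The 2 flox/+ columns of the mouse table share a name and are called a and b.

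Each comparison was fitted on its own 4 libraries (8 for the difference of effect) with edgeR 4.0.16 in R 4.3.3: TMM scaling, filterByExpr with a minimum count of 10, a quasi-likelihood test, and p adjusted by Benjamini-Hochberg over every tested gene, at 0.05. Levels are TMM-scaled CPM and log2 fold changes carry SE with n = 2 libraries per group. A fold against a group without a count uses a floor of 3 counts over the group; floors cover counting error only. Alternatives were DESeq2 1.42.0, other scalings and filters, leaving out each library, and limma 3.58.1 on the deposited log2 FPKM. The fitting script was tested on simulated data. Libraries of a group differed by a chi-square of 39.2 to 277 per degree of freedom, far above counting error. Members, roles, lists and markers were chosen with earlier results of these data known. The result of 1 marker list is not reported here. Named were the leading gene of each role, every member past the threshold or the 5 with the smallest p, the member with the largest opposite change, and the 2 smallest p of each other list. For MPC-11 against spleen, where 36 members passed, only some are given with values; for the lists, those of the difference of effect and of MPC-11 against spleen, the inhibitors other than Cdkn1a, and Tfdp1, Fbxo5, Anapc1, Anapc7 and Anapc11 are counted only. Promoters, exons and motifs were read from RefSeq (GRCm38.p6) and a mouse annotation of mm10; human sequence was not used here.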

Additional observations from a re-analysis of the deposited data

Results flagged for a closer look

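Single members were looked at again where both flox/- or both guide libraries moved one way in one comparison and the opposite way in another, relative to both of their controls. Only pairs of comparisons in different species are listed, since the difference between spleen and MPC-11 was tested as an interaction. None of the differences listed was tested, and each value below is a log2 fold change from a fit in which the gene did not pass an adjusted p of 0.05. Anln stood above both controls in MPC-11 (0.75) and below both in MM.1S (-0.70). The other 7 stood above both flox/+ libraries in flox/- plasma cells and below both empty libraries in MM.1S with the guide. Cdk1 had 2.03 in spleen and -0.33 in MM.1S, Cdca3 had 2.56 and -0.85, and Aurkb had 1.49 and -0.73. Kif23 had 4.08 in spleen and -0.44 in MM.1S, and Smc2 had 1.37 and -0.60. Spc24 and Kif11 had no count in flox/+ cells, so their spleen values are lower bounds, 4.49 for Spc24 against -0.64 in MM.1S and 4.69 for Kif11 against -0.32 in MM.1S. In spleen 25.7% of all genes stood above both controls, and in MM.1S 18.9% stood below both. Among the members, 24 of 38 tested stood above both controls in spleen, and 18 of 43 stood below both in MM.1S. With shares of that size some members meet both conditions even if the 2 comparisons are unrelated.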

How the results depend on the processing

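No member of the 3 IRF4 comparisons passed under edgeR with DESeq2's size factors, with size alone, without immunoglobulin genes or with all mouse libraries in 1 fit. Calls appeared elsewhere. DESeq2 called 6 members higher in spleen (3.82% of all genes) and 1 lower in MPC-11 (0.466%). It called 12 below 0 for the difference of effect (1.09%). With no filter on low counts edgeR called 1 member (NCAPG) lower in MM.1S, where 0.839% of all genes were. Leaving out 1 library, with the lone sample assumed to vary like the other group, gave 0 to 4 calls in MM.1S. The members' median over the left-out libraries ran from 1.21 to 2.05 in spleen, -1 to -0.33 in MPC-11, -0.47 to -0.09 in MM.1S, -3.06 to -1.66 for the difference and 4.47 to 5.66 for MPC-11 against flox/+ cells. With size alone the median of all genes in spleen moved to 0.98 and that of the members to 2.25, and the members' median was -3.24 for the difference and 6.85 for MPC-11 against flox/+ cells, where it was 5.57 with limma on log2 FPKM.

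Over all genes, same-numbered libraries did not deviate together (correlations of -0.08 in MPC-11, 0.09 in MM.1S and -0.01 in spleen). With 2 libraries per group this cannot show whether they share a batch that acts on some genes. With a replicate block MPC-11 had 0 members called and a median of -0.73, and MM.1S 0 and -0.22. In MM.1S the block gave 103 genes called higher and 105 lower, where edgeR without it called 0 higher and 1 lower. As the flox/+ count columns carry no number, the replicate block for spleen used limma on log2 FPKM. With it 2 members (Gpsm2 and Cdc20) were called higher, where 310 of 14492 genes (2.14%) were higher and 67 lower. Without the block limma called 0, and the median was 0.95. With the block MPC-11 against flox/+ cells had 37 members called higher, where 10.8% of all genes were, and a median of 5.57.

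Directions of single leading genes turned as follows, and the cause was not tested. With size alone in spleen, Ccnb1 was 0.61, Racgap1 0.37 and Mki67 0.68, and in MPC-11 Mki67 was -0.19. With limma on log2 FPKM, Plk1 in spleen was -0.43 with or without the replicate block, and CENPA in MM.1S was -0.03. Leaving out 1 library gave ranges across 0 in spleen for Ccnb1 (-0.80 to 0.06), Plk1 (-0.08 to 0.43), Bub1b (-0.37 to 1.87), Ndc80 (-0.20 to 1.76) and Mki67 (-1.12 to 0.28), in MPC-11 for Kif11 (-0.60 to 0.49), Top2a (-0.80 to 0.10) and Mki67 (-0.55 to 1.27), and in MM.1S for CCNB1 (-0.61 to 0.30), PLK1 (-0.53 to 0.30), BUB1B (-0.51 to 0.22), CENPA (-0.29 to 0.26), BIRC5 (-0.67 to 0.22) and TOP2A (-0.29 to 0.16). Ect2 in the difference of effect ran from -5.56 to 4.38. Each group has 2 libraries, and in flox/+ cells 9 members had no count in either library, so that their difference has no size (and for Ttk, at 0 in all 4 spleen libraries, no lower bound). Over all genes, edgeR called 0 in spleen, 2 higher in MPC-11 and 1 lower in MM.1S. DESeq2 called 473 higher and 177 lower in spleen, 118 and 51 in MPC-11 and 194 and 172 in MM.1S. With no filter edgeR called 27 higher and 5 lower in MPC-11 and 147 and 142 in MM.1S, and without MM.1S empty library 1 it called 677 and 289.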

Other observations

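The 2 empty-vector libraries of MPC-11 differed from each other in several members. Mki67 stood at 26.1 and 91.2 CPM, Kif23 at 7.06 and 47.1 CPM, Kif11 at 54.2 and 114 CPM and Top2a at 106 and 196 CPM in empty libraries 1 and 2, while Cdk1 stood at 123 and 73.9 CPM and Cenpa at 143 and 79.2 CPM. Immunoglobulin took 33.9% and 17.8% of counts in these libraries. In MM.1S, empty library 2 was above empty library 1 in PLK1 (246 and 447 CPM), NCAPG (68.6 and 145 CPM) and BIRC5 (161 and 303 CPM for libraries 1 and 2).

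INCENP, the scaffold of the passenger complex, had few counts in MM.1S while its partners had many. Overlap with other genes was not examined for the human table, and the cause of the low count was not tested. It stood at 1.6 and 1.48 CPM with the guide and at 4.2 and 3.63 CPM with the empty vector (log2 fold change -1.34 ± 0.75; edgeR adjusted p = 0.657), and its mean of -0.06 log2 FPKM with the empty vector ranked 42 of 43 members. In MPC-11, Incenp stood at 56.6 and 81.3 CPM with the guide and at 64.5 and 102 CPM with the empty vector. These observations were chosen after their values were seen.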
